A study of Drosophila melanogaster with 2 samples.

Results

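The AP-1 peaks were the Jra peaks whose DNA held at least 1 exact copy of the AP-1 site close to the summit. The authors' IDR list, named for the irreproducible discovery rate between replicates, has 3827 peaks. Of these, 3803 lay on the nuclear chromosome arms of build dm6, and 224 of those were AP-1 peaks. The rule asked for a whole 7-bp match to TGACTCA, or to its reverse complement TGAGTCA, within 100 bp of the summit, so it used sequence and not signal. The other 3579 nuclear peaks served for comparison.

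The peaks came from ChIP-seq of whole wandering larvae at the third instar stage, of the strain Jra-GFP, with males and females pooled and the age given as unknown. These animals carried a transgene in which GFP was fused to the C terminus of Jra, and chromatin was sheared by sonication and precipitated with an antibody against GFP. There was 1 group of 2 biological replicates, numbered 1 and 3, with no other genotype, treatment or time. Whole animals were used, so a value averages every tissue of the larva, and neither control libraries nor read totals were analysed here, so the depth behind the signals is unknown.

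Jra is the Jun protein of Drosophila, a basic leucine zipper factor that pairs with the Fos protein kay to form AP-1. Jun and Fos each contact one arm of the nearly symmetrical AP-1 site. AP-1 acts downstream of the Jun N-terminal kinase (JNK) cascade, which in fly larvae serves wound closure, epithelial movement, cell death and the response to stress.

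Sequences of 15 AP-1 peaks show the sites that the results below turn on, read from the RefSeq dm6 sequence with 22 bp to each side of the outermost sites. The AP-1 sites are in capitals, and each run is printed on the strand on which the site nearest to the summit reads TGACTCA. The first 5 are peaks with 2 sites, which stood 130, 36, 48, 23 and 167 bp apart from start to start.
Zw, chrX:19668545-19668725, minus strand: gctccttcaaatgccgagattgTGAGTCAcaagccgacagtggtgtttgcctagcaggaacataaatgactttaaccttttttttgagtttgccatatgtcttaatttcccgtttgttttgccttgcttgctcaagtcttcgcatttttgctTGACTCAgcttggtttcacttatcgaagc
DAAM, chrX:1321199-1321285, minus strand: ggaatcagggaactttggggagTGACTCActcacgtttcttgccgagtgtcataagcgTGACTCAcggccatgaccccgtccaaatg
Xrp1, chr3R:18914913-18915011, minus strand: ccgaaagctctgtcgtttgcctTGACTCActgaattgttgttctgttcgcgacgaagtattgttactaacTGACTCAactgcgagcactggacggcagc
CG34305, chr3R:4243278-4243351, plus strand: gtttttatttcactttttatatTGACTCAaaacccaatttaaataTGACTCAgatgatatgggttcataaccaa
CG5004, chrX:17130330-17130547, plus strand: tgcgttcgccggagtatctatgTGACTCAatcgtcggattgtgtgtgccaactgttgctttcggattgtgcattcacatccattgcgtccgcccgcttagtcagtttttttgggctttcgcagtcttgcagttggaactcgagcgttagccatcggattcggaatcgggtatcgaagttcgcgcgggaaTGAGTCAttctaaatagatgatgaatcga
The next 4 are among the 6 strongest AP-1 peaks and have a single site, and the last 6 belong to JNK pathway or known AP-1 target genes.
Rac2, chr3L:7435381-7435431, minus strand: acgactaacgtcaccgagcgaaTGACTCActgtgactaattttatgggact
chic, chr2L:5980222-5980272, minus strand: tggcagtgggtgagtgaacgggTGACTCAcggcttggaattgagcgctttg
sqh, chrX:6224516-6224566, minus strand: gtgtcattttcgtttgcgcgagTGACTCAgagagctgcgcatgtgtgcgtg
aqz, chr3R:8820649-8820699, plus strand: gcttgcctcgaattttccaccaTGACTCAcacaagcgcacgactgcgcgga
puc intron, chr3R:8119969-8120019, plus strand: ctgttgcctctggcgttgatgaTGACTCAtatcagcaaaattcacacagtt
kay, intergenic, chr3R:29763339-29763389, minus strand: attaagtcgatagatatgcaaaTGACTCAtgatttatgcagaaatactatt
Ets21C, chr2L:552716-552766, minus strand: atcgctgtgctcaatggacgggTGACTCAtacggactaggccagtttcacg
aop promoter, chr2L:2161536-2161586, plus strand: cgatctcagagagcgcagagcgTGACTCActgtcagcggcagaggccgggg
rpr, intergenic, chr3L:18402465-18402515, minus strand: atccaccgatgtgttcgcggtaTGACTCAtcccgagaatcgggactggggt
puc promoter, chr3R:8106380-8106430, plus strand: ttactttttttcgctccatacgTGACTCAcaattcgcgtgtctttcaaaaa
In the puc intron, kay and rpr runs the site has A directly before it and T directly after it, an arrangement that was more common in AP-1 peaks than at other sites of the genome. In the Zw and CG5004 runs the pair of sites lies in opposite orientations, and in the DAAM, Xrp1 and CG34305 runs in the same one.

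AP-1 peaks made up 5.89% of nuclear peaks, with a Wilson 95% interval of 5.19 to 6.68%. All intervals here are at this level; they cover counting error only and say nothing of how animals vary. With 1 condition and 2 replicates no test over samples was possible, so each comparison is given as counts, medians and intervals. Windows of the same width (100 bp to each side of their centre) placed 500 bp to each side of the summits held a site in 1.70% (129 of 7606 windows). The share at summits was thus 3.47-fold higher, with an interval of 2.81 to 4.30 that treats summit and flank windows of the same peak as independent. It was 3.26-fold higher at promoter peaks and 3.80-fold higher away from promoters. Adjacent windows of that width over all arms held the site in 1.59%.

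**Figure D1:**
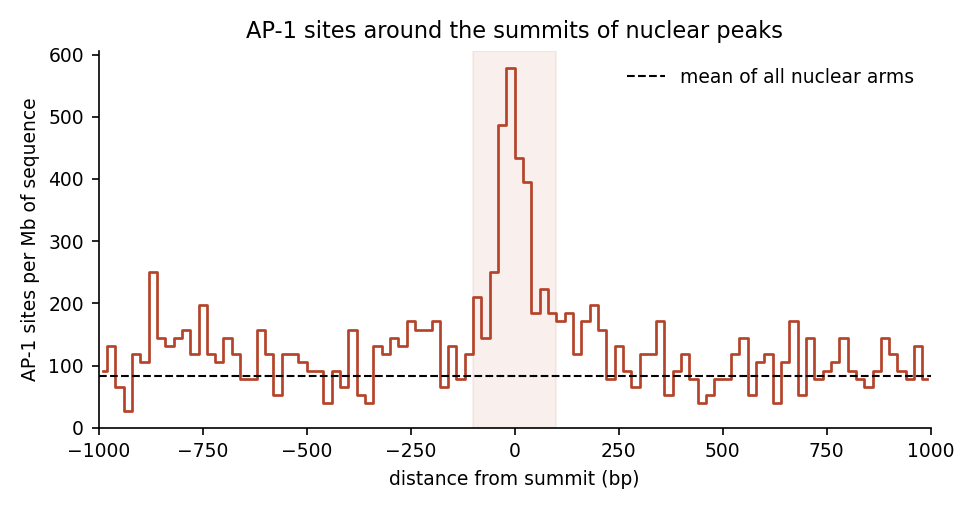
Density of exact AP-1 sites per Mb in 20-bp bins (vertical axis) by the distance of the site centre from the summit in bp (horizontal axis), over 3803 nuclear peaks. The shaded band is the 100-bp rule and the dashed line the mean of the arms, 83.4 sites per Mb. The highest bin, just left of the summit, reached 578 sites per Mb.

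Sites were concentrated under the summits. The density within 100 bp was 309 sites per Mb, against 110 at 500 to 1000 bp and 83.4 over the arms. The site nearest to the summit lay at a median of 31 bp from it, and at 38 bp and 42 bp from the summits of the overlapping regions in replicates 1 and 3. In 89 of 224 AP-1 peaks (39.7%) the same site lay within 50 bp of both replicate summits. The 44 peaks with the site within 10 bp of the summit had a median signal of 126 (interval 103 to 148), against 99.5, 104 and 100 in the bins of 11 to 25, 26 to 50 and 51 to 100 bp, and these intervals overlapped. At the edge of the rule, the 8 peaks with a site in the outermost 10 bp of the window had signals of 74.3 to 215, and the 13 peaks with a site within 10 bp outside it had signals of 71.8 to 254.

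Most AP-1 peaks held a single site: 218 had 1 and 6 had 2 (2.68%, interval 1.23 to 5.72%). The strongest AP-1 peak was one of the 6. It lay in an intron of Zw, the gene of glucose-6-phosphate dehydrogenase, which opens the pentose phosphate pathway and supplies NADPH. Its signal was 859 in the IDR list, 497 in replicate 1 and 366 in replicate 3, which placed it at rank 6 of all nuclear peaks. The other two-site peaks were far weaker. DAAM, a formin that assembles actin filaments, had a signal of 108 in the IDR list, 64.6 in replicate 1 and 46.8 in replicate 3. A promoter of Xrp1, a stress-induced factor of the basic leucine zipper family, had 102 in the IDR list, 47.2 in replicate 1 and 52.9 in replicate 3. CG34305, SCAP and CG5004 had signals of 94.9, 91.8 and 75.4. Zw and DAAM lay above the AP-1 median of 104, and the other 4 lay below it.

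The signal of AP-1 peaks spanned nearly the whole range of the list. The median was 104 (interval 99.4 to 116) against 104 (102 to 106) in the other nuclear peaks, on the authors' signal scale. In replicate 1 the medians were 62.5 and 61.8, and in replicate 3 they were 51.6 and 50.9. No difference in the median was detectable at this number of peaks, and the interval of the log2 difference ran from -0.07 to 0.16. With the top regions of replicate 1 alone it was 0.05 (-0.06 to 0.21), and with those of replicate 3 alone 0.10 (0.02 to 0.32), which did not reach 0. The upper end of the distribution did differ in its counts, at a cut chosen after the data were seen. Among the strongest 10% of nuclear peaks 9.19% held the site (35 of 381), against 5.52% of the rest, a difference of 3.66 percentage points (1.03 to 7.06). The top regions of each replicate, taken alone and as many as the IDR list holds (3827), gave 8.64% against 5.49% in replicate 1 and 9.74% against 5.14% in replicate 3. The share did not fall steadily after that: the second 10% of peaks held 4.72% and the third 8.14%. Nor was it even at the very top: the strongest 50, 100, 200 and 500 nuclear peaks held the site in 8, 5, 9.5 and 8.4%. The intervals for the strongest 50 and 100 (3.15 to 18.8% and 2.15 to 11.2%) included the 5.89% of all nuclear peaks. Below the IDR list, the next 3827 regions of the pooled list held the site in 4.47% of those on the arms, and the 3827 of lowest signal in 2.72%.

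**Figure D2:**
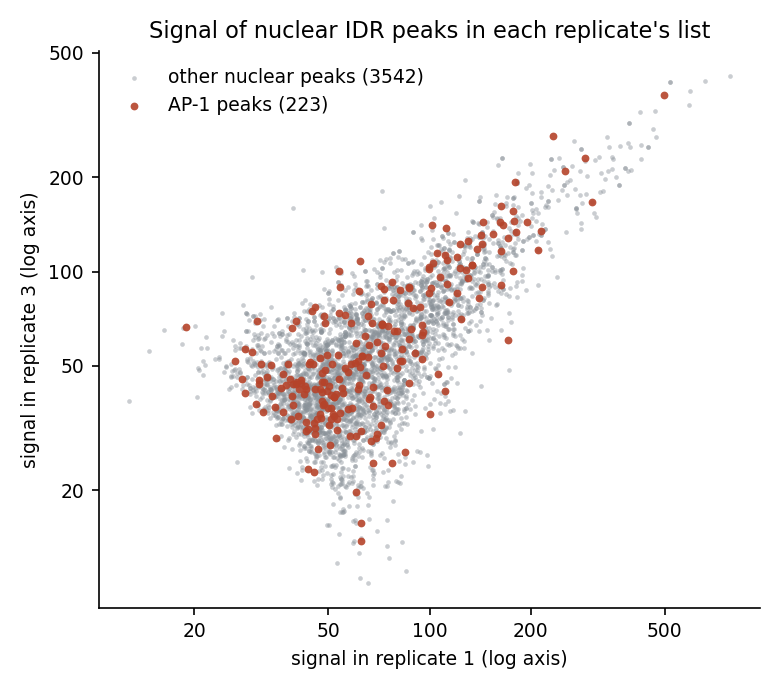
Signal of each nuclear IDR peak in the replicate 1 list (horizontal log axis) and the replicate 3 list (vertical log axis), with 223 AP-1 peaks in red over 3542 other peaks in grey. AP-1 peaks lie across the whole cloud, from lowest signals of 18.9 in replicate 1 and 13.8 in replicate 3 to the Zw peak at 497 and 366.

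Both replicates contributed to the AP-1 peaks about as they did to the others. The top regions of both replicates covered 157 of 224 AP-1 peaks (70.1%), and the background over all nuclear peaks was 69.1%. Of the rest, replicate 1 by itself covered 35, replicate 3 by itself covered 27, and 5 lay outside both sets. Every AP-1 peak overlapped some region of the replicate 1 list, as did 99.8% of the other nuclear peaks. In the replicate 3 list 223 AP-1 peaks did so (99.6%), against 99.2% of the others. The exception was the promoter peak of Fur1, a furin protease gene, which had a signal of 343 in the IDR list and 191 in replicate 1 but no overlapping region in replicate 3. The overlapping region was shared with another IDR peak for 29 AP-1 peaks in replicate 1 and 30 in replicate 3, so their replicate values are not their own alone. Spearman's rank correlation between replicate signals was 0.64 over 223 AP-1 peaks and 0.58 over 3542 others, as a description within these 2 libraries.

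After Zw, the strongest AP-1 peaks lay at promoters of Rac2, chic, Jra and sqh. Rac2, a small GTPase that steers actin, had a signal of 520 in the IDR list, 290 in replicate 1 and 230 in replicate 3, from a summit 195 bp upstream of its TSS. The peak of chic, which encodes profilin, had 484 in the IDR list, 233 in replicate 1 and 271 in replicate 3. The promoter peak of sqh, the regulatory light chain of non-muscle myosin II, had 380 in the IDR list, 180 in replicate 1 and 193 in replicate 3. In all 3 the site lay within 56 bp of the summit. Jra itself carried an AP-1 peak at its promoter, with a signal of 461 in the IDR list, 252 in replicate 1 and 210 in replicate 3, at rank 48. Its site lay 55 bp from the summit.

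Further named genes stood among the 25 strongest AP-1 peaks. Khc, the kinesin heavy chain, had a signal of 329 in an intron. Tbca, a tubulin folding cofactor, had 340 with the site 1 bp from the summit at a promoter shared with CG1896. Myo61F, a class I myosin, had 273. Hex-A, a hexokinase, had 324, Pp2C1, a protein phosphatase, had 327 in an intron, and the factor Eip74EF of the ecdysone cascade had 321 in an intron. The zinc finger factor shn, which acts in Dpp signalling, held a pair of intron peaks with signals of 280 and 247. Other members of this group included aqz, Fur1, osp, Ufsp1, Achl, the intron of puc, spict, a peak in the 3' UTR of chm, kay, CG11050 and Sys1, with signals of 246 to 344. At the other end, the weakest AP-1 peaks included those at Mob2, GstO3, dnc and an intron of aop, with signals of 70.8 to 72.2 against a lowest value of 70.6 in the other nuclear peaks.

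By their place in the annotation (Ensembl release 115), 127 AP-1 peaks (56.7%) were promoter peaks, with the summit within 1000 bp of a protein-coding TSS, against 64.5% of the other nuclear peaks. The difference was -7.85 percentage points (-14.6 to -1.33). Intron peaks were correspondingly more common, at 73 (32.6%) against 23.5%, a difference of 9.06 points (3.09 to 15.6). There were 21 intergenic AP-1 peaks (9.38% against 10.9%) and 3 in 3' UTRs (1.34% against 0.671%). In 5' UTRs and in coding exons there were 0, which allows a share of up to 1.69% in each by the Wilson interval. The other nuclear peaks had only 0.251 and 0.140% there, so these counts of 0 do not set AP-1 peaks apart. Fewer AP-1 peaks sat between or among several promoters: 36 (16.1%) had 2 or more genes with a TSS within 1000 bp, against 26.1%, a difference of -10.0 points (-14.5 to -4.44). The promoter difference was not stable over the replicates. It was -9.60 points with the top regions of replicate 1, -2.42 (-9.27 to 4.00) with those of replicate 3, and -3.94 (-12.0 to 3.54) for the IDR peaks that both sets covered.

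**Figure D3:**
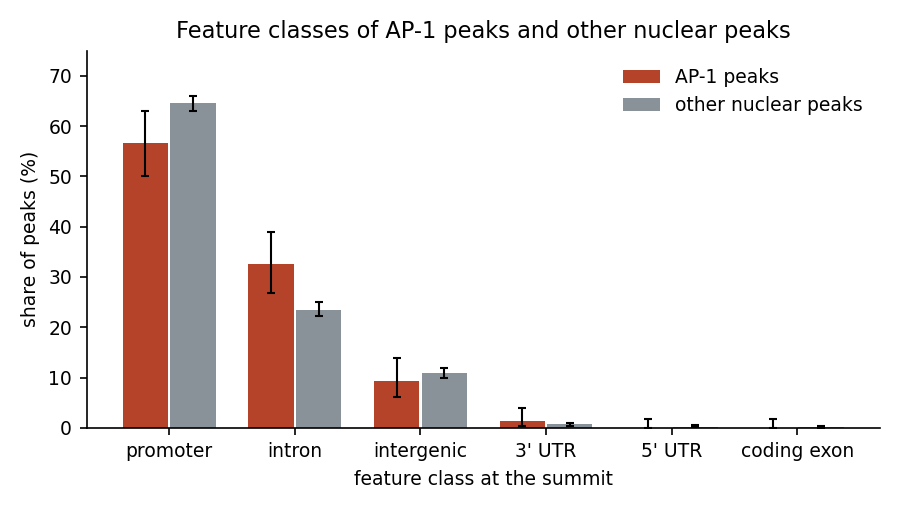
Share of AP-1 peaks (red, 224) and other nuclear peaks (grey, 3579) in each feature class at the summit, in percent, with Wilson 95% intervals as error bars. AP-1 peaks have fewer promoter summits (56.7% against 64.5%) and more intron summits (32.6% against 23.5%).

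AP-1 peaks took up a small part of the sites in the genome. The arms held 11142 exact sites, and 230 of them (2.06%) lay within 100 bp of a nuclear IDR summit; these are called sites in AP-1 peaks, and a site further out under the same peak counts as elsewhere. The share was 5.44% for sites within 1000 bp of a TSS, 1.56% for sites in introns and 0.730% for intergenic sites. Of 703 sites in coding exons none lay within 100 bp of a summit, with an upper limit of 0.543%. Nuclear peaks of any kind were also uneven over these classes: of 3803, 2437 were at promoters, 915 in introns, 410 intergenic and 5 in coding exons. The share of all sequence of each class that lay near a summit is not given here. The shares of sites therefore do not show a preference of the site for a class.

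The bases directly beside the site differed between sites in AP-1 peaks and sites elsewhere. A purine (A or G) before TGACTCA and a pyrimidine (C or T) after it reads as the same arrangement on either strand. This arrangement was found at 43.0% of sites in AP-1 peaks (99 of 230, interval 36.8 to 49.5%) and at 23.5% of the 10912 sites elsewhere (22.7 to 24.3%). The reverse arrangement, a pyrimidine before and a purine after, was found at 10.9% against 23.5%. Seen from the genome, 3.71% of sites with the favoured base on both sides lay in an AP-1 peak, 1.80% of those with it on 1 side, and 0.966% of those with it on neither. The order was the same in the top regions of each replicate alone, with 3.45, 1.83 and 1.08% in replicate 1 and 3.6, 1.61 and 1.00% in replicate 3. It also held within promoters, where 42.0% of sites in AP-1 peaks had both bases against 25.1% elsewhere, and away from promoters, with 44.4% against 23.1%. Sites in the flank windows of the nuclear peaks had them in 25.8% (33 of 128). A before and T after was found at 15.2% of sites in AP-1 peaks against 6.82% elsewhere. The neighbouring bases went with presence in a peak but hardly with its signal: the median was 106 for peaks with such a site and 103 for the others.

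**Figure D4:**
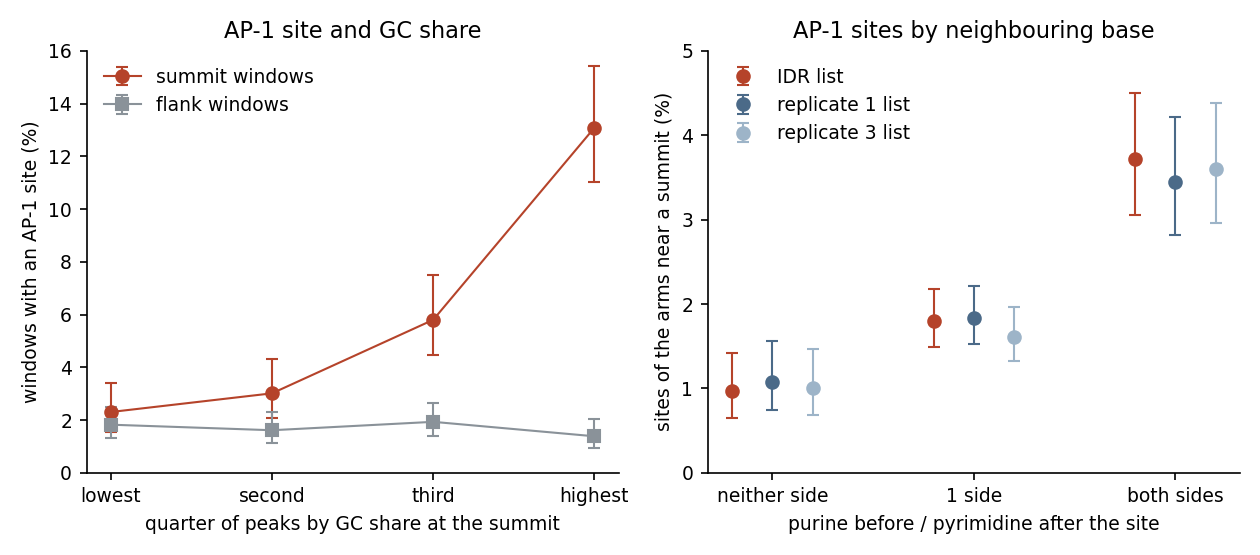
Left, percentage of summit windows (red) and flank windows (grey) with an AP-1 site, for nuclear peaks split into 4 parts of about equal size by the GC share at the summit. Right, percentage of all AP-1 sites on the arms that lie within 100 bp of a summit, by whether the purine before and pyrimidine after the site are present, for the IDR list and the top regions of each replicate. Error bars are Wilson 95% intervals. Summit windows rise from 2.31 to 13.1% while flank windows stay between 1.39 and 1.93%.

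AP-1 peaks differed from the other peaks in base composition. The window of 100 bp to each side of the summit had a median GC share of 45.3% (43.8 to 46.8) in AP-1 peaks and 37.8% (37.8 to 38.3) in the others, and the gap was present at promoter peaks (44.3 against 37.8%) and away from them (46.3 against 37.8%). In the windows centred 500 bp away the order was the other way round, with 41.0% against 43.8%. When nuclear peaks were ordered by GC share, and split into 4 parts, the site was present in 2.31% of the lowest part, 3.01 and 5.80% of the middle ones and 13.1% of the highest. The flank windows of the same peaks held 1.83, 1.61, 1.93 and 1.39%. The part that base composition plays in the other differences was not tested. AP-1 peaks were narrower than the median width of 440 bp in 27.2% of cases against 19.2%.

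Other words were searched on both strands in the same windows. The GAGA factor word GAGAGAG was present in 11.6% of AP-1 peaks and 7.43% of the others, against 2.45% of all adjacent windows of the arms, and its intervals of 8.05 to 16.5% and 6.62 to 8.34% overlapped. The TEAD word GGAATG was present in 11.6% (8.05 to 16.5%) and 6.76% (5.98 to 7.63%), against 9.46% of windows of the arms. With matches touching an AP-1 site left out the first share was 10.7% (7.31 to 15.4%). The DNA replication element TATCGATA was present in 4.02% against 5.90%, and in 0.564% of windows of the arms. The antioxidant response core TGACNNNGC, the word bound by cnc with its partner, appeared in 10.7% against 5.56%, and in 6.20% of windows of the arms, but it can share its first bases with TGACTCA: 13 of the 224 peaks had a match that overlapped the site, and 4.91% had one clear of it. The same holds for the rearranged control AGTCACT, which overlaps the site whenever AG stands before TGACTCA, or equally CT after TGAGTCA. It was found in 14.3% against 2.01%, with 1.65% of windows of the arms, and in 2.68% once overlapping matches were left out. The CRE word TGACGTCA was found in 4 AP-1 peaks (1.79% against 0.531%, and 0.271% of windows of the arms). The ETS word CCGGAAG, the Grh word AACCGGTT and the C/EBP word TTGCGCAA were found in 0 AP-1 peaks, in 0.503, 0.391 and 0.224% of the others, and in 1.21, 0.189 and 0.379% of windows of the arms. The remaining words, which were the GATA factor word AGATAAG, the E boxes CACGTG and CAGCTG, the STAT word TTCNNNGAA, the Zelda word CAGGTAG, the heat shock element GAANNTTC and Motif 1 with GGTCACAC, were present in 0.893 to 12.5% of AP-1 peaks, with intervals that overlapped those of the other peaks. The shares of these words in windows of the arms were between 0.430 and 8.39%.

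A gene was said to hold a peak when the summit was within 1000 bp of its TSS, inside its body, or nearest to its TSS. In that sense 265 of 13945 protein-coding genes (1.90%) held an AP-1 peak, 24.8% held any nuclear peak, and 7.67% of the genes with a peak held an AP-1 peak. Among the 146 genes with an AP-1 peak and further peaks, the AP-1 peak was the strongest in 67 (45.9%). The same share for peaks in general is not given here, so this count does not describe a trait of AP-1 peaks. A total of 15 genes held 2 or more AP-1 peaks, of which puc and Xrp1 held 3. Genes with more peaks have more chances to hold an AP-1 peak, so shares of peaks are given beside shares of genes.

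JNK pathway genes, 25 on the list, held a peak of any kind in 18 cases and AP-1 peaks in 6 (24.0%), and 11 of their 40 peaks were AP-1 peaks (27.5%, interval 16.1 to 42.8%, against 5.89% of all nuclear peaks). The 24 genes listed as known AP-1 or JNK targets held a peak in 20 cases and AP-1 peaks in 10 (41.7%), with 14 of 46 peaks (30.4%, 19.1 to 44.8%). Over all protein-coding genes 24.8% held a peak and 1.90% an AP-1 peak. As with all gene lists here, both lists were chosen with earlier results of these data known, so their shares are no independent test. The intervals count peaks of the same gene as separate draws. The lists share kay, msn and puc, and together they covered 18 AP-1 peaks with a median signal of 104 (93.7 to 232), of which 6 were at promoters. Within these 18 peaks, 7 sites (38.9%, 20.3 to 61.4%) had A before and T after, against 13.2% in the other AP-1 peaks. That count was made after the sequences were seen.

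The gene puc, which encodes the phosphatase that switches JNK off, had 7 peaks, 3 of them AP-1 peaks. The strongest of its peaks lay in an intron, with the nearest TSS that of CG7878, and had a signal of 287 in the IDR list, 162 in replicate 1 and 144 in replicate 3. A further intron peak had 93.7 in the IDR list, 51.2 in replicate 1 and 50.6 in replicate 3. At the promoter the AP-1 peak had 139, and a neighbouring peak without a site had 213; both overlapped the same regions, with 113 in replicate 1 and 109 in replicate 3.

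The Fos gene kay had 5 peaks. Its promoter peak, the strongest at 309, held no exact site, and an intergenic AP-1 peak 2652 bp upstream had a signal of 270 in the IDR list, 163 in replicate 1 and 116 in replicate 3. An intron AP-1 peak, nearest to the TSS of fig, had 103 in the IDR list, 40.1 in replicate 1 and 69.3 in replicate 3. The higher replicate value was that of replicate 3 in the intron peak and that of replicate 1 in the intergenic one. For aop, an ETS repressor also known as Yan, the promoter AP-1 peak had 232 in the IDR list, 123 in replicate 1 and 103 in replicate 3, and an intron one had 70.8. The kinase gene msn, upstream of JNK, held a pair of intron AP-1 peaks of 95.4 and 92.4, and Cdc42, a small GTPase, had a promoter AP-1 peak of 94.9.

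**Figure D5:**
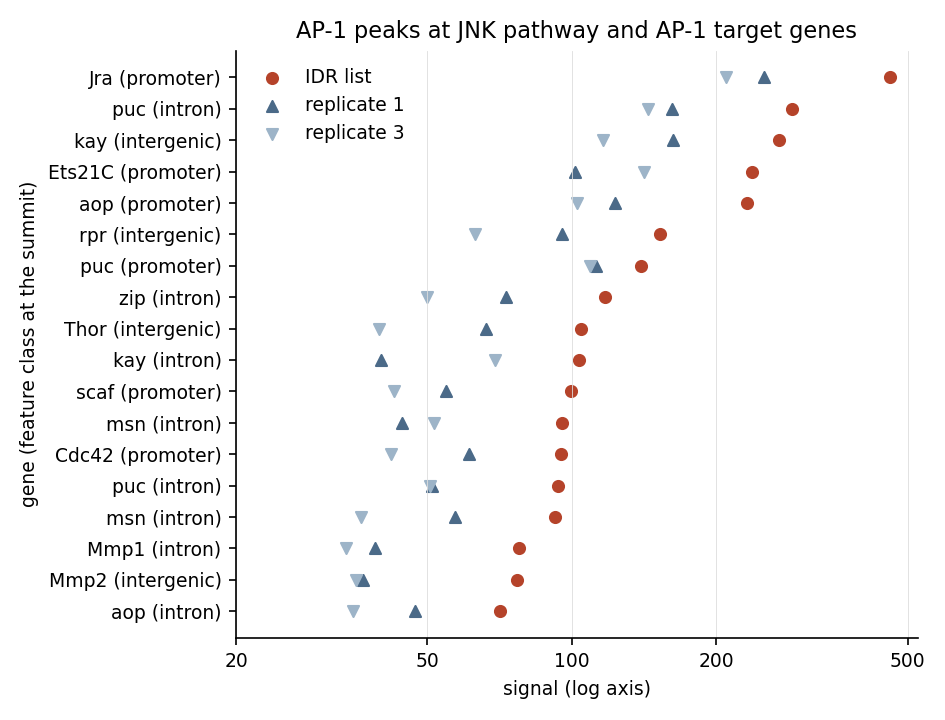
Signal (log axis) of the 18 AP-1 peaks held by JNK pathway and AP-1 target genes, 1 line per peak, in the IDR list (circles) and in the overlapping region of replicates 1 and 3 (triangles). The peaks run from Jra at 461 to an intron of aop at 70.8, and the replicate values follow the same broad order.

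Among the known targets, the ETS factor Ets21C had a promoter AP-1 peak with a signal of 237 in the IDR list, 102 in replicate 1 and 141 in replicate 3. The cell death gene rpr had an intergenic one 4056 bp upstream, with the site 1 bp from the summit and signals of 153 in the IDR list, 95.2 in replicate 1 and 62.8 in replicate 3. The myosin heavy chain zip had 117, the translation inhibitor Thor (4E-BP) had 104 and scaf, a serine protease homologue active in epithelial closure, had 99.4. The matrix metalloproteinases Mmp1 and Mmp2 had weak AP-1 peaks, of 77.7 in an intron and 76.9 between genes. At Mmp1 the promoter peak, at 309, held no exact site.

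Actin, adhesion and matrix genes held any nuclear peak in 19 of 28 cases (67.9%, against 24.8% of all protein-coding genes). They held AP-1 peaks in 6 (21.4% against 1.90%), with 6 of 40 peaks (15%, 7.06 to 29.1%, against 5.89% of all nuclear peaks). Beside chic, sqh and zip these were jar, a class VI myosin, with 124, mys, a beta integrin, with 122, and Moe, which links actin to the membrane, with 77.9 in the IDR list, 18.9 in replicate 1 and 66.4 in replicate 3. Of 18 oxidative stress genes 12 held any nuclear peak (66.7%) and 4 held AP-1 peaks (22.2%), with 4 of 14 peaks (28.6%, 11.7 to 54.6%). These were Zw with 859 and Nmdmc, a folate enzyme, with 235 at a promoter shared with Rel. The others were the malic enzyme Men with 92.4 and cnc, the fly counterpart of Nrf2, with 76.7. Of 17 basic leucine zipper genes, 10 held any nuclear peak (58.8%) and 3 held AP-1 peaks (17.6%: Jra, kay and cnc), against 1.90% of all protein-coding genes. Among the 31 peaks of this list 4 were AP-1 peaks (12.9%, 5.13 to 28.9%, against 5.89% of all nuclear peaks). All 4 are also counted for JNK pathway genes (Jra and kay) or oxidative stress genes (cnc). Likewise, zip is on both the actin list and the list of targets. The lists are therefore not separate sets of peaks. Xrp1, which was not on that list, held 3 AP-1 peaks among 6, of 184, 143 and 102.

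In 5 further lists 1 or 2 genes held an AP-1 peak, which is 5.26 to 14.3% of each list's genes against 1.90% of all protein-coding genes. All 14 ecdysone response genes held some peak and 2 held AP-1 peaks (Eip74EF and Sox14), with 3 of 61 peaks (4.92%, 1.69 to 13.5%), a share near the 5.89% of all nuclear peaks. In EGFR and Ras signalling 2 of 17 genes did so (aop and kek1), with 3 of 37 peaks (8.11%, 2.80 to 21.3%). In wound and epidermis it was 2 of 17 genes (msn and sn), with 3 of 20 peaks (15%, 5.24 to 36.04%). Autophagy had 1 of 19 genes (Atg17), with 1 of 15 peaks (6.67%, 1.19 to 29.8%), and innate immunity 1 of 18 genes (Rel), with 1 of 12 peaks (8.33%, 1.49 to 35.4%). The intervals of all 5 shares of peaks include 5.89%. The AP-1 peaks of aop and msn here are also counted in the JNK pathway list, and the Rel peak is the one counted for Nmdmc. The lists of Hippo (15 genes), JAK/STAT (12), heat shock (17), glial and neuronal (12) and cytoplasmic ribosomal protein genes (20) held 0. Their peaks numbered 30, 14, 12, 7 and 13, for which the Wilson interval of 0 allows shares of up to 11.4, 21.5, 24.2, 35.4 and 22.8%, all above 5.89%. The smell and taste receptor list (18 genes) held 1 nuclear peak and 0 AP-1 peaks.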

How the data were processed

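The authors deposited narrowPeak lists for each replicate, for pooled reads and for the IDR selection; their values are a signal per region, and the summit is a start plus an offset, per the file headers and columns. Which aligner, peak caller, control or IDR cutoff they used is not given in the sources used here. The signal scale differs between lists. The replicate lists hold 30000 and 29999 regions. Peaks on dm6 were used; dm3 lists were not used here. Sequence came from RefSeq Release 6, which is dm6, and genes from Ensembl release 115. Members and gene lists (16, 2 symbols unmatched) were chosen with earlier results of these data known.

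Replicate values are the highest signal of an overlapping region (at least 1 bp). A summit took the first class that applied: promoter, then 5' UTR, 3' UTR or coding exon, then intron, else intergenic. Shares have Wilson intervals, differences of shares Newcombe intervals and medians order-statistic intervals. The interval of a log2 signal difference combines those of both medians. The fold over flanks has a normal interval on the log of the ratio. The scan and annotation were tested on simulated data. Named genes are those of the 25 strongest AP-1 peaks, of peaks with 2 or more sites, list genes with an AP-1 peak (up to 6 a list, any for JNK pathway and AP-1 targets) and the 5 weakest; some of these are not reported here. Sequences are 15 of these off the arm 2R, in the order given with them. Alternatives were each replicate alone, other windows, higher thresholds, 1 mismatch, and other promoter, flank, overlap and gene rules. Python 3.11.15, numpy 2.4.6, scipy 1.17.1 and matplotlib 3.10.9 were used.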

Additional observations from a re-analysis of the deposited data

How the results depend on the processing

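Of 79 values recomputed for 11 results, 60 stayed within the interval of the reported value (for counts, within 1.5 times), and 0 turned a direction that had been called. A direction was called only for differences whose reported interval excluded 0. These were the promoter share, the bases beside the site, the GC share and the strongest 10% of peaks. The other results could not turn by this rule. Settings for the bases beside the site, the GC share and the strongest 10% of peaks were chosen after seeing the data. A site within 25 bp of the summit left 89 AP-1 peaks, a share of 2.34%, 108 genes, 0% with a second site and a fold over flanks of 5.93; within 50 bp the share was 4.08% and the fold 5.08, and within 150 bp they were 7.20% and 2.74. When 1 of the bases other than the central one could differ, 32.6% of peaks held a site, at a fold of 1.27. The higher-signal part of the list (1901 peaks) held 111 AP-1 peaks and 139 genes, and genes with a TSS within 1000 bp numbered 167. Flanks at 300 bp gave a fold of 2.64. Among peaks in the top regions of each replicate the log2 signal difference was 0.17, with an interval that reached 0 (-0.03 to 0.26), and in the higher-signal part it was 0.11, with an interval just clear of 0 (0.00059 to 0.32). The share with a site in the highest of the 4 GC parts, minus that in the lowest, was 10.8 points, 14.1 away from promoters and 8.21 to 8.30 without 1 replicate. For the promoter share, sites within 25 bp and the higher-signal part gave intervals that reached 0, at -9.24 and -7.64 points. Leaving out a replicate gave no value for coverage by both replicates, which needs both. No paired analysis was possible because there was 1 group. The read depth behind the signals is unknown.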

Other observations

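Pairs of AP-1 peaks lay close together at a few genes, chosen here after their values were seen. SCaMC, a mitochondrial carrier gene, held neighbouring summits with signals of 237 and 85.6, and Rab11, a GTPase of recycling endosomes, held summits 226 bp apart with signals of 113 and 77.7. In each of these pairs both peaks had the same replicate values. These were 134 in replicate 1 and 105 in replicate 3 at SCaMC, and 63.1 and 53.7 at Rab11. No site was counted for more than 1 peak. The Xrp1 locus held 3 AP-1 peaks in a row, 1962 and 1364 bp apart, at 102, 143 and 184. At alphaTub84B, an alpha tubulin gene, AP-1 peaks 2412 bp apart had signals of 196 and 86.4. The histone acetyltransferase gene chm held AP-1 peaks in an intron and in the 3' UTR, with signals of 204 and 273.

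The share of peaks that were AP-1 peaks was 7.51% on 3R, 6.80% on 2R, 5.26% on 3L, 4.81% on X and 4.55% on 2L. The intervals of these arms all overlapped one another, including those of 3R (5.96 to 9.41%) and 2L (3.24 to 6.35%). The density of the site over these arms ran from 78.1 to 86.0 per Mb. A summit inside an annotated non-coding gene was found for 11 AP-1 peaks (4.91%) against 5.00% of the others.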
